A study of Rattus norvegicus with 12 samples.

Results

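The genes of β-aminoisobutyric acid (BAIBA) synthesis and breakdown were followed in the left ventricle of rats with heart failure (HF) after myocardial infarction. They were picked by symbol from what is known of BAIBA metabolism: Agxt2, Abat, Hibadh, Hibch, Aldh6a1, Dpyd, Dpys, Upb1 and the receptor gene Mrgprd. All 9 were rows of the deposited table of 34700 genes. Transcripts were counted by poly(A) RNA sequencing in 12 male Sprague-Dawley rats, with 3 rats per group: Sham, HF, HFE and BAIBA.

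All rats were operated on at 8 weeks of age, and hearts were taken 12 weeks later. Sham rats had the same operation with a thread passed and left untied. HF, HFE and BAIBA rats shared the same infarct model, made by tying off the anterior descending artery of the left coronary. HF rats stayed sedentary. HFE rats had treadmill training for 60 min/day on 5 days/week during 8 weeks, and BAIBA rats received BAIBA by gavage at 75 mg/kg/day for 8 weeks. By the methods, Sham and HF rats were gavaged with water alone, whereas a supplementary scheme speaks of BAIBA given to Sham and HF groups. The sample titles call the BAIBA group HF+Med and the HF group HF+Sed, without naming BAIBA. The methods were followed, with BAIBA given to the BAIBA group only. The methods name the left ventricular anterior wall as the tissue and give the region bordering the infarct for BAIBA rats only, while the study's results place HF tissue there too. Treatment and sampling site therefore cannot be told apart between BAIBA and HFE or Sham rats, and whether HF and BAIBA tissue came from the same region differs between these descriptions. If HF tissue came from there, sampling site also cannot be told apart from infarction or exercise between HF and Sham or HFE rats. In such bulk tissue, fewer cells of a type and less RNA per cell cannot be told apart.

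Depth ranged from 14812541 to 19732588 counts per rat. The ventricular cardiomyocyte markers Myh6, Myl2, Tnni3, Actn2 and Ryr2 had counts in every rat, and their summed level ranged from 10523 to 12821 FPKM (fragments scaled by gene length and by library size). The summed level of the 4 atrial markers (Myl7, Myl4, Sln and Nppa) was uneven within groups, at 29.5 to 497 FPKM in Sham rats, 82.6 to 573 in HF rats, 30.8 to 208 in HFE rats and 13.9 to 263 in BAIBA rats. Nppa had by far the highest mean of the 4 in every group.

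BAIBA has 2 mirror forms with separate origins. The L form arises from valine, when an aminotransferase converts methylmalonate semialdehyde, and the D form arises from thymine, which is opened and trimmed by the pyrimidine-degrading enzymes. Mitochondrial transaminases return BAIBA to methylmalonate semialdehyde, which Aldh6a1 oxidises to propionyl-CoA. Thymine degradation is known as a task of liver and, for some of its enzymes, kidney, while muscle and heart oxidise valine.

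The heart transcriptome held the valine route in abundance and almost nothing of the other enzymes. The 3 valine-route genes took 181023 of the reads on the 9 genes over all rats, or 99.7%, and between 0.0802% and 0.107% of the reads of each library. The thymine route (Dpyd, Dpys and Upb1) took 363 reads (0.200%), the transaminases Agxt2 and Abat 106 reads (0.0584%), and Mrgprd 10 reads. These shares are not per length, and the levels below are in FPKM.

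**Figure D1:**
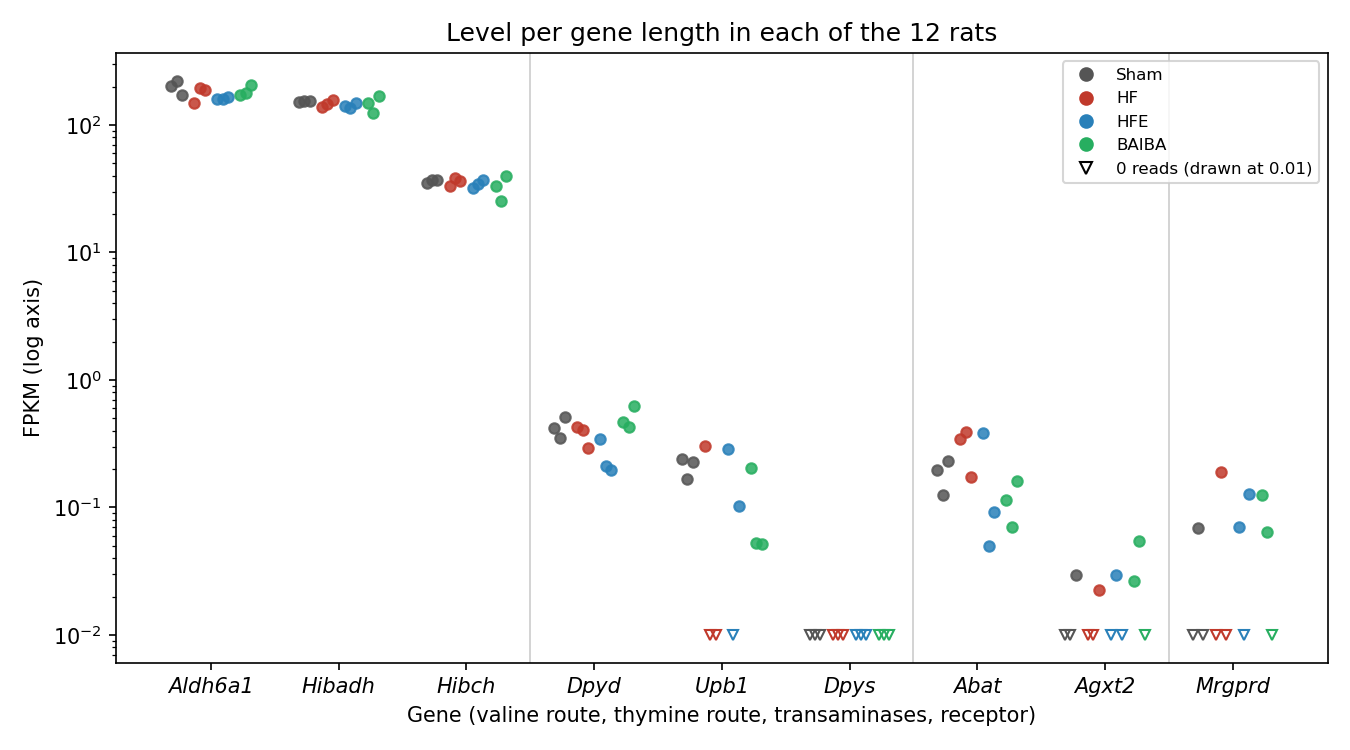
FPKM of the 9 genes in each of the 12 rats on a log axis, ordered by route, with open triangles for rats at 0 reads. Aldh6a1, Hibadh and Hibch lie between 25.3 and 223 FPKM, and every other value lies under 0.7 FPKM.

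Aldh6a1 encodes methylmalonate semialdehyde dehydrogenase, the enzyme that removes the compound from which L-BAIBA is made. Its mean level was 181 FPKM (range 150 to 223 over the 12 rats), above 99.1% of all genes in the table. Hibadh, the dehydrogenase that makes methylmalonate semialdehyde from 3-hydroxyisobutyrate, was at 147 FPKM (125 to 169). Hibch, the hydrolase that frees 3-hydroxyisobutyrate from its CoA ester one step earlier, was at 35.0 FPKM (25.3 to 39.7).

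The order Aldh6a1, Hibadh, Hibch held within every rat. The ratio of FPKM levels between Aldh6a1 and Hibadh was 1.08 to 1.44 (median 1.18), so these neighbours in the order were close. The ratio between Hibadh and Hibch was wider and narrow in range, 3.77 to 4.93 (median 4.22). RefSeq places the gene Bbof1 over part of the Aldh6a1 locus, and the sources used here do not say whether counting used the strand, so reads of the shared stretch cannot be assigned to one of them with certainty.

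Dpyd, dihydropyrimidine dehydrogenase, starts thymine breakdown. Its mean level was 0.389 FPKM (0.195 to 0.627), from 14 to 45 reads per rat. The level of Hibadh was 270 to 763 times that of Dpyd (median 359). Dpys, the hydrolase of the next step, had 0 reads in each of the 12 rats, which allows up to 3 reads per rat. Upb1, the β-ureidopropionase that releases D-BAIBA in the last step, had 31 reads in all and 0 to 6 per rat (mean 0.136 FPKM). Of the thymine route, therefore, the first enzyme was countable in every rat, the second was not detected at this depth and the last was seen in 9 rats.

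Agxt2 and Abat encode the mitochondrial transaminases that act on BAIBA, and Abat is best known as GABA transaminase. Agxt2 had 6 reads over 5 rats, at most 2 in any of them (mean 0.0136 FPKM). Abat had 100 reads, from 2 to 17 per rat, and a mean of 0.194 FPKM (0.0501 to 0.391). Mrgprd, a G protein-coupled receptor of sensory neurons that responds to BAIBA and β-alanine, had 10 reads over 6 rats and at most 3 in any of them (mean 0.0537 FPKM).

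The low genes can be set beside markers of the tissues known for them. The hepatocyte marker Alb had 0 reads in 10 rats and at most 12, the kidney marker Umod had 0 reads in all 12, and Slc34a1, another kidney marker, had at most 1 read. Of the other markers on these lists, Apoa1 had 0 to 9 reads, while Ttr (124 to 238), Cyp2e1 (100 to 803) and the kidney marker Lrp2 (3 to 84) had reads in every rat. The sensory neuron markers Scn10a and Calca had at most 1 read and were at 0 in 11 rats, while Prph, on the same list, had 56 to 184.

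Promoter windows of the RefSeq annotation (assembly GRCr8, from 250 bases before the start site to 50 after it) were found for 6 of the 9 genes: Hibadh, Hibch, Aldh6a1, Dpyd, Upb1 and Agxt2. There was no entry for Abat, Dpys or Mrgprd. The windows of the 3 abundant enzymes are shown with Dpyd, the countable thymine enzyme, and Agxt2, the lowest gene with any reads, to let their base composition be compared. Capitals mark matches, on either strand, to the NRF1 motif (GCGCA and GCGC with any base between them), the oestrogen-related receptor (ERR) motif TNAAGGTCA, the CCAAT box, the GC box GGGCGG and the TATA box TATAAA.
Hibadh, chr4:83077770-83078069, minus strand: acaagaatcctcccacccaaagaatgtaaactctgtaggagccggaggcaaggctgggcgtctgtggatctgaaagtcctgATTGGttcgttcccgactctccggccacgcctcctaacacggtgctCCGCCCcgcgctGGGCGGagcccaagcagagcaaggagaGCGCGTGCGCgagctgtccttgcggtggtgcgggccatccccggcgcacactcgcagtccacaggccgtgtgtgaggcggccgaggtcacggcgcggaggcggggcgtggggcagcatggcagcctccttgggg
Hibch, chr9:56161747-56162046, minus strand: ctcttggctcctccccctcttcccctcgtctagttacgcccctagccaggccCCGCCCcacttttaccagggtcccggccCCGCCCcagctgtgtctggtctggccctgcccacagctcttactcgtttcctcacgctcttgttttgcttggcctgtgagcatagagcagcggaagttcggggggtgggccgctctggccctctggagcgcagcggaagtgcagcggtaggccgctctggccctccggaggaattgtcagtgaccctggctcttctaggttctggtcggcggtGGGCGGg
Aldh6a1, chr6:109829676-109829975, minus strand: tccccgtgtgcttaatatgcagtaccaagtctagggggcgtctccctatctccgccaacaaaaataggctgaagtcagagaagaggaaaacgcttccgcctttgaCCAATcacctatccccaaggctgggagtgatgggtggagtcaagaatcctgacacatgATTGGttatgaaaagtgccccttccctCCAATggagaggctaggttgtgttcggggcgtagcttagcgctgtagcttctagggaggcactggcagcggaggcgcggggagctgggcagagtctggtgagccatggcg
Dpyd, chr2:209293730-209294029, plus strand: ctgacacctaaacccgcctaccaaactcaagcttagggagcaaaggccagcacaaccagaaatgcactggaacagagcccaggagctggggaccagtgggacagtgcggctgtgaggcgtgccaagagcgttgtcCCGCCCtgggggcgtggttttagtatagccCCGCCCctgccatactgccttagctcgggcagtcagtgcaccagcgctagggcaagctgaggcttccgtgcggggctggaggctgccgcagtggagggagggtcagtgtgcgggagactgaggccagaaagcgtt
Agxt2, chr2:61063166-61063465, plus strand: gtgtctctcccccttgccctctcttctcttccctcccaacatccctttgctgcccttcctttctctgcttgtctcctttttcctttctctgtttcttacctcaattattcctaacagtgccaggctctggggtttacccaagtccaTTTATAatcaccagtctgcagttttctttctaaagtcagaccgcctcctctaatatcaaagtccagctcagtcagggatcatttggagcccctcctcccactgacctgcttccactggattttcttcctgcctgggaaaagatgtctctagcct

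The windows differed widely in CpG content. The ratio of observed to expected CpG was 0.835 for Hibadh, 0.560 for Hibch, 0.526 for Aldh6a1, 0.482 for Dpyd, 0.236 for Upb1 and 0.0677 for Agxt2, against a median of 0.392 over 33465 promoters. GC content was 67% for Hibadh and 48.7% for Agxt2 (median of all promoters 51.7%). The 3 abundant genes lay above the 3 low ones on this scale, with a small gap between Aldh6a1 and Dpyd, and nothing was tested on these 6 windows.

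The motifs differed in how common they are. Hibadh held 1 NRF1 match at position -84 from the start site, a motif found in 4.26% of all promoters, with 1 CCAAT box and 2 GC boxes. Hibch held 3 GC boxes and Dpyd 2 (33.1% of all promoters hold at least 1), and Aldh6a1 held 3 CCAAT boxes and Upb1 2 (37.5%). The ERR motif, present in 1.20% of promoters, was in none of the 6 windows, and the TATA box, present in 14.2%, was in that of Agxt2. No matches overlapped. A match is a description of letters and does not show that a factor binds.

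The valine-route enzymes were then compared between groups on counts scaled to library size with TMM factors over the 12 rats (CPM). Hibadh was at 267, 265 and 261 CPM in Sham rats, 230, 258 and 289 in HF rats, 243, 250 and 271 in HFE rats and 242, 225 and 293 in BAIBA rats. The Sham rats lay close together, and each of the other groups spread on both sides of them. Group means with SD (n = 3) were 265 ± 3.24 in Sham, 259 ± 29.5 in HF, 255 ± 14.3 in HFE and 253 ± 35.4 in BAIBA.

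Hibch was at 69.3, 70.4 and 70.5 CPM in Sham rats, 61.1, 76.3 and 74.6 in HF rats, 62.0, 70.3 and 74.6 in HFE rats and 60.8, 50.9 and 76.7 in BAIBA rats. The highest and the lowest rat were both in the BAIBA group. Aldh6a1 was at 677, 720 and 549 CPM in Sham rats, 467, 652 and 649 in HF rats, 522, 552 and 565 in HFE rats and 529, 602 and 677 in BAIBA rats. Every pair of groups overlapped for each of these 3 genes. Groups that did not overlap were found in 11.7% of all genes tested in HF against Sham, 14.3% in HFE against HF and 12.7% in BAIBA against Sham.

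**Figure D2:**
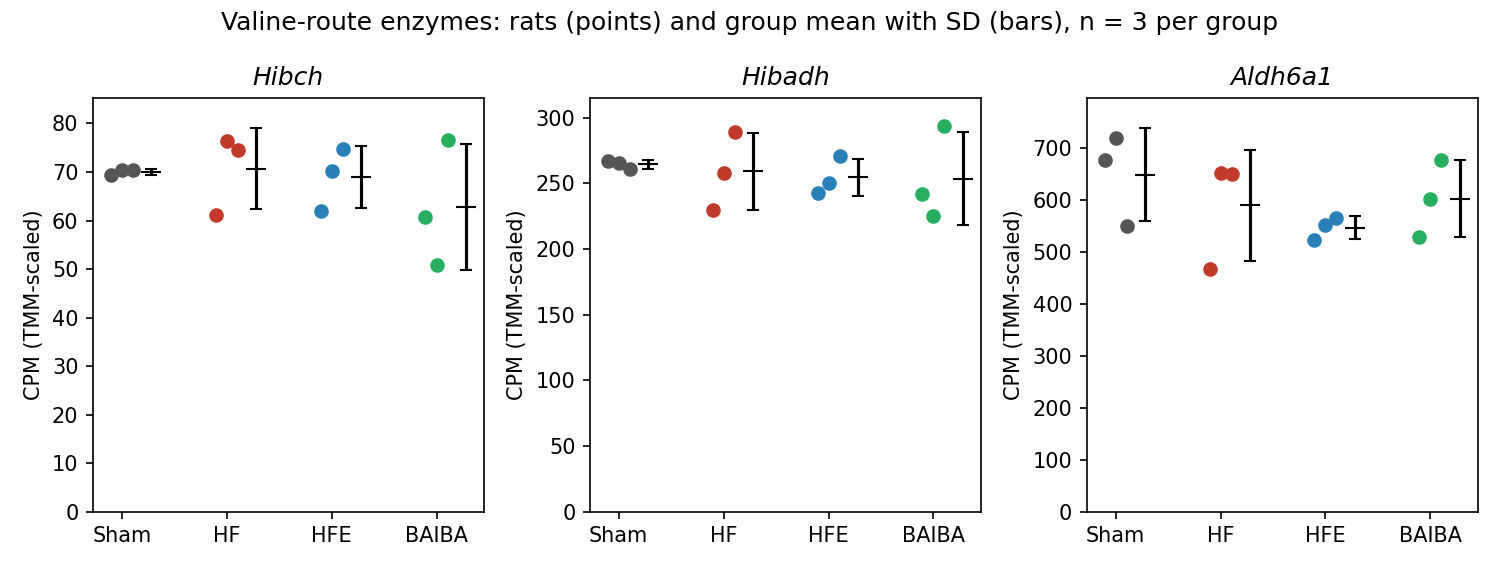
CPM of Hibch, Hibadh and Aldh6a1 by rat (points, n = 3 per group), with the group mean and its SD (bars) to the right. The groups overlap in all 3 panels, and Sham rats are tightly grouped for Hibch and Hibadh but not for Aldh6a1.

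Differences were tested with edgeR's quasi-likelihood test over all genes, with a call at a Benjamini-Hochberg adjusted p under 0.05. None of the 9 genes was called in any of the 8 comparisons. In each pair of groups 4 of them could be tested (Hibadh, Hibch, Aldh6a1 and Dpyd), and Abat also passed the filter on low counts in HFE against HF and in both fits of all 12 rats. Of all genes tested, 0% were called in HF against Sham, 0% in HFE against HF, 0% in BAIBA against HF, 0.108% in BAIBA against HFE, 0% in HFE against Sham and 0.0402% in BAIBA against Sham. It was 0% as well in the 9 infarcted rats against the 3 Sham rats and in the test of any difference among the 4 groups. At an unadjusted p under 0.05 the count was 1 of the 9 genes in BAIBA against HFE (Dpyd), 1 in HFE against Sham (Aldh6a1), 1 in the test of any difference (Dpyd) and 0 in the other 5 comparisons. The share of all genes tested that passed this unadjusted threshold was 9.57%, 11.2% and 9.71% in those 3 comparisons, and it was 6% in HF against Sham, 7.62% in HFE against HF, 5.55% in BAIBA against HF, 7.41% in BAIBA against Sham and 6.35% in infarcted against Sham. DESeq2 and limma also called 0 of them.

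The intervals show what size of difference these data leave. For BAIBA against HF, the contrast of treated and untreated infarcted rats, the log2 fold change of Hibadh was -0.03 (SE 0.14, 95% interval -0.35 to 0.29), that of Hibch was -0.17 (SE 0.16, -0.55 to 0.21) and that of Aldh6a1 was 0.03 (SE 0.16, -0.34 to 0.41). For HF against Sham, infarcted against sham-operated rats, they were -0.03 for Hibadh (-0.27 to 0.20), 0.01 for Hibch (-0.23 to 0.24) and -0.14 for Aldh6a1 (-0.51 to 0.23). For HFE against HF, exercised against sedentary infarcted rats, they were -0.02, -0.03 and -0.11, with intervals from -0.41 to 0.24 in all. No interval of the 3 enzymes in any comparison reached a doubling or a halving.

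Aldh6a1 was the valine-route enzyme furthest from equality. In HFE against Sham its log2 fold change was -0.24 (SE 0.10, interval -0.46 to -0.01), with an adjusted p of 0.417 by the quasi-likelihood test of edgeR (0.0400 unadjusted), and Sham replicate 3 (549 CPM) lay within the HFE range. The exact permutation test over the 20 assignments of 6 rats, two-sided, gave p = 0.3. In the 9 infarcted rats against the Sham rats it was -0.16 (interval -0.42 to 0.09, adjusted p = 0.839).

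**Figure D3:**
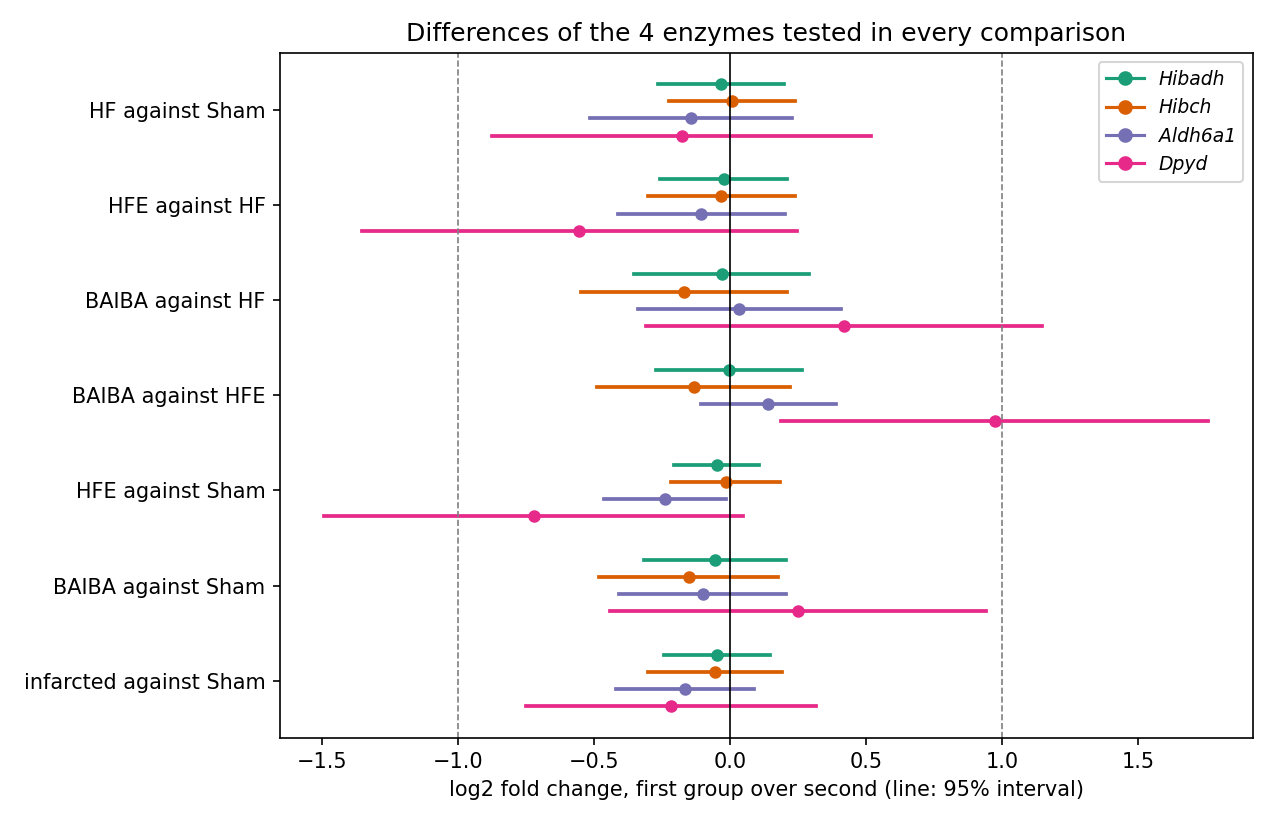
Log2 fold changes of Hibadh, Hibch, Aldh6a1 and Dpyd in 7 comparisons (points) with their 95% intervals (lines). Dashed lines mark a log2 change of 1 in either direction. The valine-route intervals stay inside them, while the Dpyd interval for BAIBA against HFE runs from 0.19 to 1.76.

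Of the 4 genes tested in every pair of groups, Dpyd differed most between groups. It was at 1.85, 1.5 and 2.15 CPM in Sham rats (32, 23 and 33 reads), 1.77, 1.79 and 1.33 in HF rats (31, 29 and 25 reads), 1.46, 0.971 and 0.883 in HFE rats (22, 14 and 14 reads) and 1.90, 1.92 and 2.71 in BAIBA rats (34, 30 and 45 reads). All HFE rats were below all Sham rats and below all BAIBA rats, and each BAIBA rat was higher than each HF rat. Such separation was found in 15.6% of all genes tested in BAIBA against HFE, 17.8% in HFE against Sham and 11.4% in BAIBA against HF.

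The largest difference was the one between the treated groups. In BAIBA against HFE the log2 fold change of Dpyd was 0.97 (SE 0.34, interval 0.19 to 1.76), a fold of 1.96, with an adjusted p of 0.403 by the quasi-likelihood test of edgeR (unadjusted 0.0205) and an exact permutation p of 0.1. In HFE against Sham it was -0.72 (SE 0.33, -1.49 to 0.05, adjusted p = 0.473), in HFE against HF -0.55 (SE 0.34, -1.35 to 0.25, adjusted p = 0.704) and in BAIBA against HF 0.42 (SE 0.31, -0.31 to 1.15, adjusted p = 0.862). HF differed from Sham by -0.18 (SE 0.30, -0.87 to 0.52). These comparisons share samples and are not separate evidence. The exact permutation test gave p = 0.1 for each of the 3 separated pairs, the smallest it can give. Over the 12 rats the coefficient of variation of Dpyd CPM was 29.8%, where counting error alone would give 19.0%.

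Several marker lists also differed between BAIBA and HFE rats. The summed level of Cd68, Csf1r and Cd163, none of them at 0 in any rat, was 16.4 to 20.2 FPKM in Sham rats, 14.8 to 24.1 in HF rats, 9.63 to 14.6 in HFE rats and 15.5 to 33.8 in BAIBA rats. All HFE rats were below all other rats for this sum, narrowly (14.6 against 14.8 FPKM), and their mean was the lowest for Dpyd. Each of the 3 markers alone overlapped between HFE rats and another group. Between BAIBA and HFE, the pair in which Dpyd differed most, 3 more lists did not overlap. Of single genes tested, 15.6% did not overlap in this pair. The 4 hepatocyte markers summed to 26.9 to 34.1 FPKM in BAIBA rats and 15.6 to 26.1 in HFE rats (16.3 to 28.4 in Sham and 19.98 to 27.2 in HF), with Alb at 0 in 10 of the 12 rats. Ttr and Cyp2e1 made up nearly all of this sum, and each alone overlapped between BAIBA and HFE rats. The 3 sensory neuron markers summed to 3.88 to 6.30 FPKM in BAIBA rats and 1.94 to 2.89 in HFE rats (1.83 to 3.99 in Sham and 2.54 to 3.56 in HF), with Scn10a and Calca at 0 in 11 rats. The 3 erythroid markers (Alas2, Hba-a1 and Hbb), none at 0, summed to 1310 to 1634 FPKM in BAIBA rats and 914 to 1114 in HFE rats (689 to 1031 in Sham and 699 to 1484 in HF). BAIBA replicate 1, with the highest macrophage sum (33.8 FPKM), had Dpyd at 1.90 CPM, close to BAIBA replicate 2 (1.92 CPM). Sham replicate 1, with the lowest erythroid sum (689 FPKM), had Dpyd at 1.85 CPM. Dpyd was lowest in HFE replicate 3 (0.883 CPM), where the macrophage sum was 10.9 FPKM and the erythroid sum was 914 FPKM. The part of any of these cells in the Dpyd values was not tested.

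**Figure D4:**
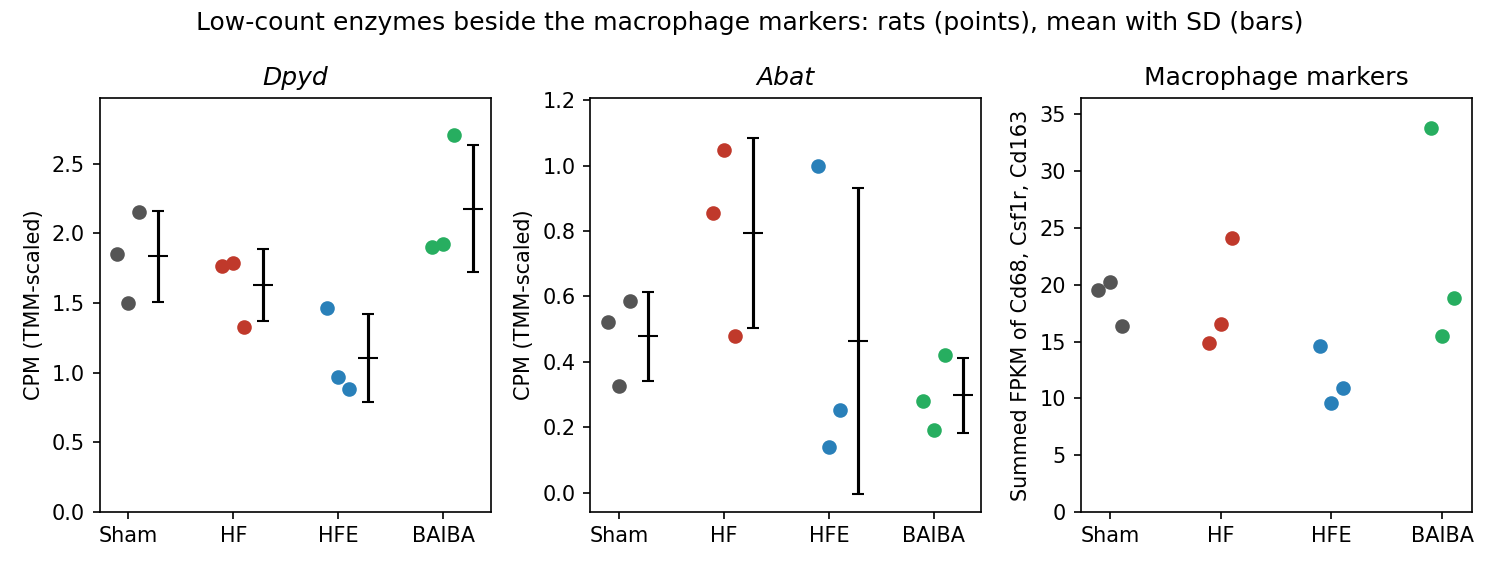
CPM of Dpyd and Abat by rat (points) with mean and SD (bars, n = 3 per group), and the summed FPKM of 3 macrophage markers by rat. The HFE mean is the lowest for Dpyd, all HFE rats are the lowest for the markers, and 1 HFE rat stands well above the other two for Abat.

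Abat had 9, 5 and 9 reads in Sham rats, 15, 17 and 9 in HF rats, 15, 2 and 4 in HFE rats and 5, 3 and 7 in BAIBA rats. All BAIBA rats (0.192 to 0.421 CPM) were below all HF rats (0.478 to 1.05 CPM). The gene was under the filter in this pair, and 11.4% of the genes that passed it did not overlap either. Without the filter, edgeR's quasi-likelihood test gave a log2 fold change of -1.38 with an adjusted p of 0.822 over 23697 genes (0.0484 unadjusted), and the exact permutation test gave p = 0.1, the smallest it can give. In HFE against HF, where it passed the filter, the change was -0.76 (SE 0.72, interval -2.44 to 0.92, adjusted p = 0.796), and HFE replicate 1, with 15 reads, was as high as the HF rats. Without HFE replicate 1 the change was -1.96 and without HFE replicate 2 it was -0.34, the ends of the range over rats left out, and limma on log2(FPKM + 1) gave -0.16, with adjusted p from 0.726 to 0.940 over all alternatives. Without HFE replicate 3 it was -0.46.

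Upb1 had 5, 3 and 4 reads in Sham rats, 6, 0 and 0 in HF rats, 5, 0 and 2 in HFE rats and 4, 1 and 1 in BAIBA rats. Every Sham rat had reads and 3 infarcted rats had none, but the groups overlapped. Mrgprd had 0, 1 and 0 reads in Sham rats, 0, 3 and 0 in HF rats, 1, 0 and 2 in HFE rats and 2, 1 and 0 in BAIBA rats. Agxt2 had 1 read in each of the Sham, HF and HFE groups and 3 in the BAIBA group. A difference in Upb1, Mrgprd or Agxt2 was not detectable at this depth, since a count of 0 allows up to 3 reads and no rat had more than 6.

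The 4 genes with at least 10 reads in every rat were also compared across rats after the group means had been removed. Hibadh and Hibch varied together, with Pearson's r = 0.907 (exact permutation within groups, p = 0.0139, adjusted over the 6 pairs p = 0.0833) and Spearman's rho = 0.839 (permutation p = 0.0162, adjusted p = 0.0509), over n = 12. Without the 2 rats farthest from the median of Hibadh, r was 0.906. BAIBA replicate 3 was high for both genes (293 and 76.7 CPM), and HF replicate 1 and BAIBA replicate 2 were low for both.

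The other valine-route pairs were looser. Hibadh and Aldh6a1 had r = 0.670 (permutation p = 0.0895, adjusted p = 0.179) and rho = 0.783 (permutation p = 0.0170, adjusted p = 0.0509), with r = 0.561 without the 2 farthest rats. Hibch and Aldh6a1 had r = 0.580 (permutation p = 0.0849, adjusted p = 0.179) and rho = 0.685 (permutation p = 0.0432, adjusted p = 0.0864), with r = 0.700 without the 2 farthest. Dpyd had r = -0.04 with Hibadh, 0.05 with Hibch and -0.25 with Aldh6a1 (rho = -0.23, -0.08 and -0.11, adjusted permutation p from 0.681 to 0.931). None of the 6 pairs passed an adjusted p of 0.05. Both values of a rat come from the same library, so depth and tissue composition enter both.

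**Figure D5:**
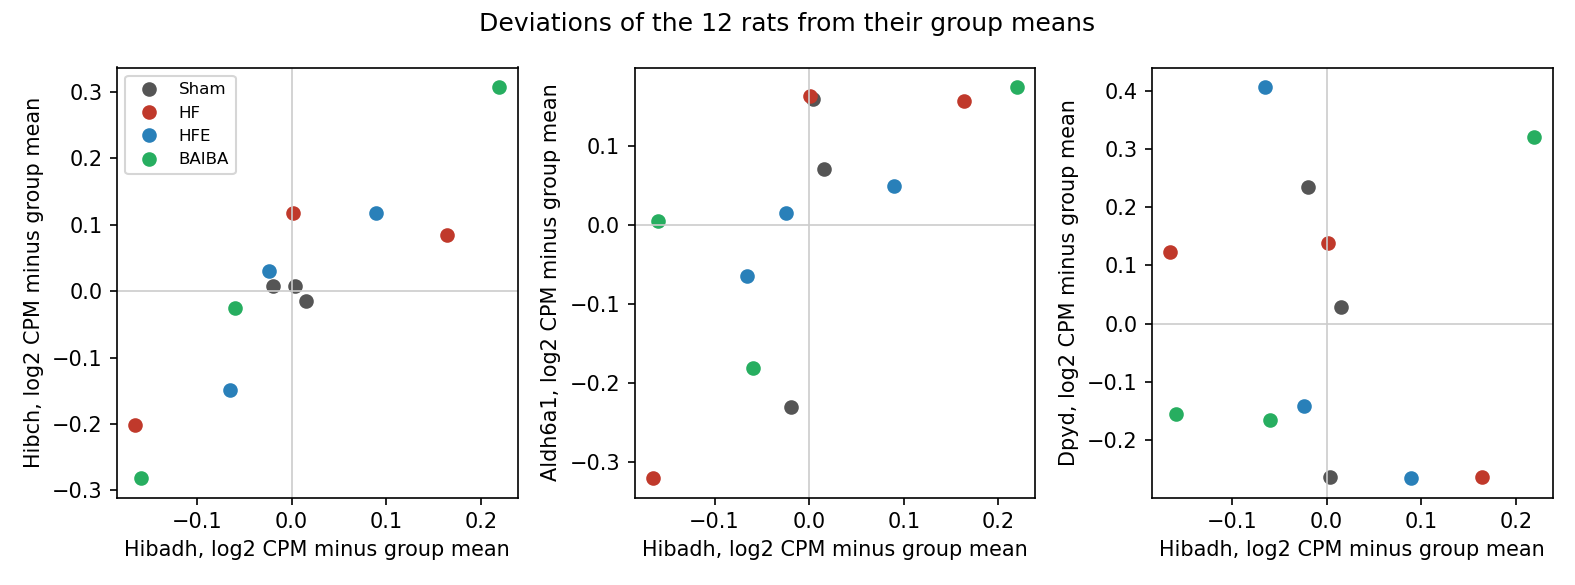
Deviation of each of the 12 rats from its group mean in log2 CPM, with Hibadh on the horizontal axis and Hibch, Aldh6a1 or Dpyd on the vertical axis. The points rise together for Hibch (r = 0.907), less closely for Aldh6a1 (r = 0.670) and not for Dpyd (r = -0.04).

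By pattern over the 12 rats, group means included, the genes most like Hibadh among 12293 genes were Wdr13 (r = 0.920), Ivd (0.914) and Coq8a (0.914), and Hibch ranked 16 (r = 0.865). Ivd is isovaleryl-CoA dehydrogenase of leucine breakdown, and Coq8a belongs to ubiquinone synthesis. Those most like Hibch were Ndufa9, a complex I subunit (0.923), Cep68 (0.921) and Sod2, the mitochondrial superoxide dismutase (0.910). Aldh6a1 was most like Polr1a (0.914), Fdft1 (0.913) and AABR07007026.1 (0.909), and Dpyd was most like Spock2 (0.863), Col4a3bp (0.862) and Gabre (0.859). These are descriptions, chosen as the highest of many.

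The genes around the 9 were read from lists of 40 related genes, of which 39 were in the table and Gadl1 was not analysed here. Between 31 and 33 of them could be tested, and edgeR's quasi-likelihood test called 0 in each comparison. Counts at an unadjusted p under 0.05 are given with the share of all genes tested. They were 6 of 31 in HF against Sham (6%), 4 of 32 in HFE against HF (7.62%) and 4 of 32 in BAIBA against HF (5.55%). In BAIBA against HFE it was 1 of 32 (9.57%), in HFE against Sham 3 of 31 (11.2%) and in BAIBA against Sham 3 of 31 (7.41%). In infarcted against Sham it was 7 of 33 (6.35%) and for any difference 6 of 33 (9.71%). DESeq2 called Ddah1 in HFE against Sham and Slc6a6 for any difference.

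Most genes of the steps from valine to methacrylyl-CoA were abundant. The highest levels were those of Dld (205 FPKM), a subunit that several dehydrogenase complexes share, Bckdha (108) and Bckdhb (80.7), the subunits of the branched-chain ketoacid dehydrogenase, and Bcat2 (70.3), the mitochondrial aminotransferase. Echs1, the hydratase that acts just before Hibch, was listed at only 1.53 FPKM (23 to 56 reads), was named after its values were seen, and whether its reads were counted on another gene was not tested. In HF against Sham, 1 of these 10 genes had a positive log2 fold change and the median was -0.19, where the median of all genes was 0.01. The summed ventricular cardiomyocyte markers, none at 0, were at 10523 to 11031 FPKM in HF rats. This was below all Sham rats (11641 to 12821), all HFE rats (11275 to 12406) and all BAIBA rats (11398 to 12513). Mean Myh6 was at 3133 FPKM in Sham rats, 2018 in HF rats and 1806 in HFE rats. Between Sham and HF rats, mean Myl2 (4821 and 4749), Tnni3 (3606 and 3454), Actn2 (543 and 530) and Ryr2 (88.2 and 73.7) differed by fewer FPKM, which depends on their levels. Relative to their levels, Myh6 and Ryr2 were lowered more than the others. The part of these markers in the values of the list was not tested. The genes of lowest p were Bckdk, the kinase of the complex, at -0.33 (SE 0.09, adjusted p = 0.784), and Dbt, its transacylase, at -0.28 (SE 0.08, adjusted p = 0.805), both by the quasi-likelihood test of edgeR and both named after their values were seen.

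In HFE against HF the median of the same list was 0.15, with 7 of 10 positive, and in BAIBA against HF it was 0.03, with 6 of 10. These contrasts share the HF rats with HF against Sham. Bckdhb was at 106, 104 and 109 CPM in HF rats and 133, 129 and 137 in BAIBA rats, without overlap, for a log2 fold change of 0.32 (SE 0.09, adjusted p = 0.851). Groups did not overlap in 11.4% of all genes tested in BAIBA against HF.

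Propionyl-CoA, the product of Aldh6a1, is used by Pcca (59.4 FPKM) and Pccb (48.3), the subunits of its carboxylase, and then by Mcee (45.4) and the mutase Mmut (42.9). Their median log2 fold change was -0.07 in HF against Sham, 0.03 in HFE against HF and 0.00 in BAIBA against HF. Genes of thymidine and pyrimidine base metabolism were lower, with Tymp, the thymidine phosphorylase that releases thymine, at 9.83 FPKM, the uridine phosphorylase Upp1 at 8.52 and Tk2, the mitochondrial thymidine kinase, at 4.10. Cda, cytidine deaminase, had 6, 0 and 10 reads in BAIBA rats and 10 to 40 in the other rats, with a log2 fold change of -2.54 in BAIBA against Sham (SE 0.75, adjusted p = 0.560 by the quasi-likelihood test of edgeR), and it was named after its values were seen.

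The transporter of taurine and β-amino acids, Slc6a6, was the transporter gene of the highest level (12.2 FPKM) and the least even. It was at 23.5, 27.7 and 29.3 CPM in Sham rats, 22.0, 77.6 and 77.3 in HF rats, 16.0, 29.0 and 27.4 in HFE rats and 27.8, 23.1 and 22.7 in BAIBA rats. HF replicates 2 and 3 stood apart from the other 10 rats, and HF replicate 1 was in their range, so the HF mean rests on 2 rats. The log2 fold change was 1.13 in HF against Sham (SE 0.47, adjusted p = 0.805) and -1.26 in BAIBA against HF (SE 0.46, adjusted p = 0.851). Without HF replicate 1 these were 1.52 (adjusted p = 0.0127) and -1.65 (adjusted p = 0.0393). These fits were added after the data were seen. They leave out the only HF rat in the range of the other groups, so they are no separate evidence. The sum of the 4 atrial markers was highest in those 2 HF rats, at 509 and 573 FPKM against 82.6 in HF replicate 1. In Sham replicate 3 it was 497 FPKM, with Slc6a6 at 29.3 CPM. Most of this sum was Nppa, with a mean of 379 FPKM in HF rats and 200 in Sham rats. Mean Myl7 (3.54 and 13.0), Myl4 (4.07 and 17.5) and Sln (2.12 and 11.3) were lower in HF than in Sham rats. The part of these markers in the Slc6a6 values was not tested.

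Slc36a1, a proton-coupled amino acid transporter, was at 2.15 FPKM. It was at 7.81, 7.61 and 7.57 CPM in Sham rats, 7.36, 7.40 and 7.23 in HF rats, 5.13, 5.89 and 7.25 in HFE rats and 5.99, 5.44 and 5.11 in BAIBA rats. All 9 infarcted rats were below all 3 Sham rats, a separation found in 1.02% of all genes tested, with a log2 fold change of -0.29 (SE 0.12, interval -0.56 to -0.02, adjusted p = 0.779). All BAIBA rats were also below all HF rats, with a log2 fold change of -0.41 (SE 0.17, interval -0.80 to -0.02, adjusted p = 0.851). In that pair 11.4% of all genes tested did not overlap. Slc6a13, next on the transporter list, was at 0.152 FPKM.

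Ddah1, which breaks down asymmetric dimethylarginine, a substrate it shares with Agxt2, had the lowest p of the 14804 genes tested in HFE against Sham and was named after its values were seen. It was at 56.4, 57.9 and 53.0 CPM in Sham rats, 46.4, 20.2 and 23.7 in HF rats, 30.4, 26.5 and 33.0 in HFE rats and 50.1, 24.5 and 37.2 in BAIBA rats. All 9 infarcted rats were below all 3 Sham rats, as in 1.02% of all genes tested. The log2 fold change was -0.89 in HFE against Sham (SE 0.10, interval -1.11 to -0.67, adjusted p = 0.0839 by the quasi-likelihood test of edgeR) and -0.79 in infarcted against Sham (SE 0.24, adjusted p = 0.740). In HFE against Sham it was called by DESeq2 (adjusted p = 4.04e-08), without the filter on low counts (adjusted p = 0.00153) and without HFE replicate 3 (adjusted p = 0.0385), and over the 16 alternatives the adjusted p reached 0.531. In HF against Sham it was -0.89 (adjusted p = 0.805), and without HF replicate 1 it was -1.35 (adjusted p = 0.0163). That fit was added after the data were seen and leaves out the HF rat nearest the Sham rats (46.4 CPM), so it is no separate evidence.

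Ddah1 was on the list of β-alanine, GABA and glyoxylate partners. The highest levels of that list were those of Cndp2, a dipeptidase (19.9 FPKM), Ddah2 (13.2) and Aldh5a1, which follows Abat in GABA breakdown (11.3). Of the receptors related to Mrgprd, Mrgprf was at 1.97 FPKM, Mas1 at 0.849 FPKM and Mrgprg at 0.156 FPKM, all above the 0.0537 FPKM of Mrgprd.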

How the data were processed

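RNA from the left ventricle of 12 rats was sequenced as paired-end poly(A) libraries. Alignment was done by the authors with HISAT2, transcript assembly with StringTie and counting with featureCounts, as the study's methods and the submitters' processing notes say, without versions. The notes list a mouse build, mm9, although the gene identifiers are those of rat, so the build is not given here. The deposited counts are raw whole numbers. The deposited FPKM values come from a calculation that the authors made from these counts and the gene lengths. The same values in further deposited tables did not differ.

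Tests on counts used edgeR 4.0.16 in R 4.3.3 (TMM, filterByExpr, robust quasi-likelihood fits, no covariate), per pair of groups or over 12 rats. An adjusted p is from this test unless another tool is named, and a call needed 0.05. Single values were tested by two-sided exact permutation of log2(CPM + 0.1) over 20 or 220 assignments, and correlations over 1296 permutations within groups. DESeq2 1.42.0 and limma 3.58.1 were alternatives. The method was tested on simulated data. Depth was 14812541 to 19732588 counts per rat, and intervals and limits for 0 reads cover counting error only where they come from counts alone. Nothing says more of the replicates than separate samples of rats, so p-values measure the spread between these samples.

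The 9 genes and the related and marker lists were chosen with earlier results of these data known. Of each related list the 3 genes of the highest FPKM and any gene called were named, with the 3 genes most like each countable enzyme. Ddah1, Bcat2, Bckdk, Dbt, Echs1, Mmut and Cda were named after their values were seen. Replicate numbers come from the labels. In BAIBA against HFE each same-numbered pair of rats deviated together (r = 0.195, 0.261 and 0.138), although they are different animals, and not in the other pairs of groups. The replicate block called 50 genes there (16 without it). Promoter windows and neighbouring genes came from RefSeq (GRCr8). Comparisons computed by the authors were not used.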

Additional observations from a re-analysis of the deposited data

How the results depend on the processing

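The count of the 9 genes called was 0 in each of 144 fits: edgeR with other scaling, filters, all 12 rats or the replicate block, DESeq2, limma on log2 FPKM, and each rat left out. Of 503 alternative values, 34 had the opposite sign, the largest at 0.39 in size, and none of them was called. By library-size scaling alone Hibch in HF against Sham became -0.012, Hibadh in BAIBA against HFE 0.054, Abat in infarcted against Sham -0.010 and r of Hibadh and Dpyd 0.16. Limma on log2(FPKM + 1), with or without a filter, gave -0.015 for Hibch in HF against Sham and 0.042 for Hibadh in BAIBA against HFE. Limma on log2(FPKM + 0.1) gave -0.016 and 0.043 for these, -0.047 for Abat in infarcted against Sham, and that scale gave r = 0.18 for Hibadh and Dpyd. The cause was not tested. With the replicate block Abat in infarcted against Sham was -0.021, and the log2 fold change of Dpyd in BAIBA against HFE was 0.98 (adjusted p = 0.366). The block changed no call of the 9 genes.

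Leaving out each rat, the log2 fold change ranged from -0.12 to 0.042 for Hibadh in HF against Sham, from -0.053 to 0.10 for Hibch in HF against Sham, from -0.096 to 0.058 for Hibadh in HFE against HF, from -0.12 to 0.041 for Hibch in HFE against HF, from -0.15 to 0.054 for Hibadh in BAIBA against HF, from -0.10 to 0.13 for Aldh6a1 in BAIBA against HF, from -0.12 to 0.072 for Hibadh in BAIBA against HFE, from -0.074 to 0.056 for Hibch in HFE against Sham, from -0.18 to 0.011 for Hibadh in BAIBA against Sham, from -0.39 to 0.18 for Abat in infarcted against Sham. In the same way r of Hibadh and Dpyd ranged from -0.62 to 0.23 and r of Hibch and Dpyd ranged from -0.51 to 0.36. Dpyd in BAIBA against HFE stayed positive in these fits, from 0.79 to 1.23, and its adjusted p ranged from 0.269 to 0.801 over its alternatives. It was 0.27 by limma on log2(FPKM + 1), a scale that understates the change of low genes. Of the related genes, leaving out HF replicate 1 called Ddah1 and Slc6a6 in HF against Sham and Slc6a6 in BAIBA against HF and for any difference; these fits were added after seeing the data. Over all genes, DESeq2 called 52 in HF against Sham, 46 in HFE against HF, 38 in BAIBA against HF, 171 in HFE against Sham, 23 in infarcted against Sham and 333 for any difference, where edgeR's quasi-likelihood test called 0, and 326 (edgeR 16) in BAIBA against HFE and 121 (edgeR 6) in BAIBA against Sham. One edgeR fit of all 12 rats called 1 in BAIBA against HF, 3 in BAIBA against HFE and 0 in BAIBA against Sham, and the replicate block called 1 in HFE against Sham, 50 in BAIBA against HFE, 9 in BAIBA against Sham and 5 for any difference.

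Depth limits Agxt2, Upb1, Mrgprd and Dpys to values with no usable comparison, and Abat and Dpyd to wide intervals. With 3 rats against 3 the exact permutation test cannot go below 0.1.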
